A study of Mus musculus with 12 samples.

Results

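Mouse embryonic stem (ES) cells without Dicer, the nuclease that cuts microRNAs out of their precursors, were compared with cells of the same clone that carried, by their labels, an excess of the DNA methyltransferase Dnmt1. The comparison rests on the 4 arrays titled for this pair of RNAs, out of 12 in the series. The Dnmt1-labelled cells were Dicer1-null cells of clone 27G5 or 27H10 overexpressing Dnmt1, and their controls were Dicer1-null cells of the same clone without the addition. Both sides therefore lacked Dicer, and each clone is 1 culture name with 1 RNA of each kind. The labels name neither the construct nor the promoter that drives Dnmt1, and give no treatment; all cells grew on gelatin with leukemia inhibitory factor, the cytokine that holds mouse ES cells undifferentiated. The other 8 arrays compared Dicer-null cells labelled as overexpressing Dnmt3a and Dnmt3b with Dicer-null cells, and Dicer-null cells with wild-type ES cells, in the same 2 clones.

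Dnmt1 is the maintenance DNA methyltransferase: it copies methyl groups onto the new DNA strand after replication. In mouse ES cells and the early embryo, CpG methylation keeps part of the genome silent or low. Among it are germline genes, the X-linked Rhox homeobox cluster and genes of the trophoblast, the lineage that forms the placenta. Dnmt3a and Dnmt3b set new methylation marks.

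Each array held 2 RNAs in 2 dyes, and each clone was hybridised a second time with the dyes exchanged. A value below is a log2 ratio of Dnmt1-labelled over Dicer-null cells, so 1 stands for a doubling. Its mean and SD are over the 2 clones (n = 2), each the average of its dye-swapped pair. The first value given for a clone is from the array with Dnmt1-labelled RNA in Cy5, the second from that with Dnmt1-labelled RNA in Cy3. Median array signals were 112 to 132 in the green channel and 234 to 334 in the red channel on the 4 arrays. Of all probes, 62.1% to 66.3% were well above background for the Dnmt1-labelled RNA and 62.3% to 67.9% for the Dicer-null RNA. Across genes, the dye-swapped arrays of 27G5 correlated at r = 0.747, those of 27H10 at 0.726, and the clones with each other at r = 0.682 (Spearman 0.59, 20048 genes); genes are not independent replicates, and both clones were measured on the same array design. The Dnmt1 and Dnmt3a,3b arrays of a clone shared 1 slide, so in them clone and slide cannot be told apart. The labels do not say that the clones stand for separate cultures of 1 condition, so p-values measure the spread between these 2 samples and those of the other comparisons.

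Of 20048 genes tested, 2408 were higher and 2206 lower in Dnmt1-labelled cells at an adjusted p under 0.05 (limma, Benjamini-Hochberg). These are 12% and 11% of all genes, or 23% together. Of the 4614 called genes, 4517 had the same sign on all 4 arrays, 464 rose and 318 fell at least 2-fold, and 50 rose and 12 fell at least 4-fold. Rises outnumbered falls most at the 4-fold limit. The counts depend strongly on how the error is estimated: 291 genes rose and 189 fell when ratios that share an RNA were entered as correlated, and 166 rose and 70 fell when only the 2 Dnmt1 ratios were used. Without the 27H10 ratio 1310 rose and 1030 fell. Of the 267 called genes named by the rule for this text, 93 stayed called with shared RNAs modelled and 61 under each of 15 alternatives. The median log2 ratio of all genes was 0.01, and the medians of the chromosomes lay between -0.02 and 0.04.

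**Figure D1:**
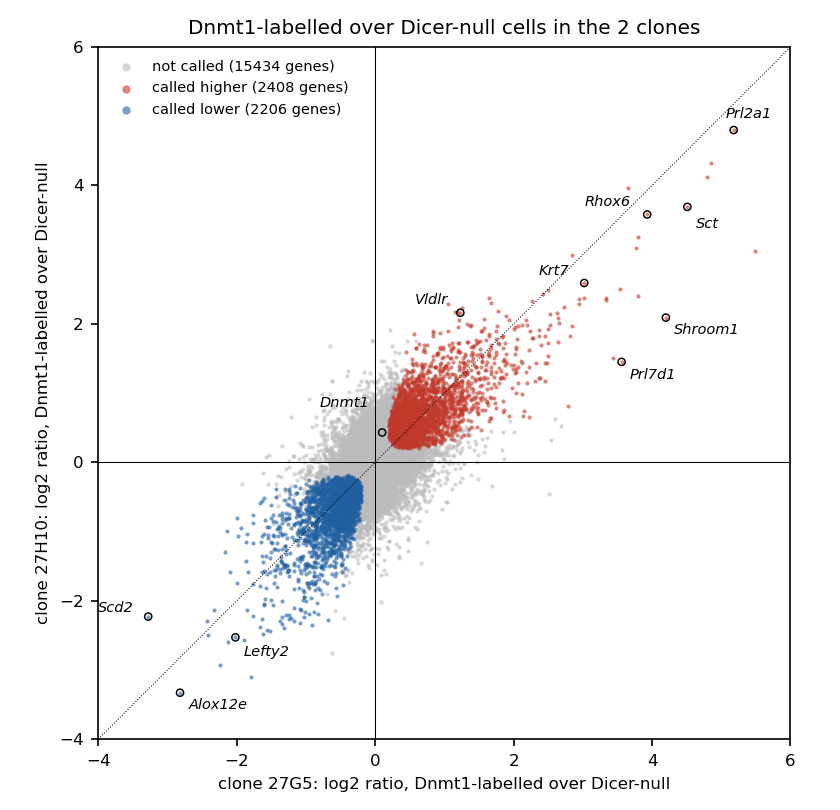
Each point is 1 of 20048 genes, with its log2 ratio of Dnmt1-labelled over Dicer-null cells in clone 27G5 on the x axis and in clone 27H10 on the y axis; red points were called higher (2408), blue points lower (2206) and grey points not called, and the dotted line marks equal ratios. Prl2a1 and Alox12e lie at opposite ends near the dotted line, Prl7d1 and Shroom1 lie below it toward 27G5, and Dnmt1 lies near 0 on the 27G5 axis.

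The label was first set against the Dnmt1 probe on chromosome 9 (20784085 to 20784453, build mm7). Its log2 ratios were 0.17 and 0.04 (27G5), 0.70 and 0.16 (27H10). All 4 were above 0 and the highest was on 1 array of clone 27H10. The mean was 0.27 ± 0.23 and was not called (adjusted p = 0.111), although clone 27H10 alone gave 0.43 (adjusted p = 0.0391). The label thus has no called rise at this probe beside it; whether the probe lies in the introduced sequence is not given in the sources used here, and the cells are called Dnmt1-labelled throughout. Of 22 genes of the DNA methylation machinery 5 rose and 3 fell, 22.7% and 13.6% against 12% and 11% of all genes. With shared RNAs modelled 0 were called. Among the falls were both de novo enzymes. Dnmt3a gave -0.87 and -0.99 (27G5), -1.66 and -1.83 (27H10), a mean of -1.34 ± 0.58 (adjusted p = 0.0405), with other probes at -1.04 and 0.05. Dnmt3b gave -1.37 and -1.33 (27G5), -0.66 and -0.90 (27H10), a mean of -1.06 ± 0.40 (adjusted p = 0.0307). Both lay below 0 on all 4 arrays at these probes; Dnmt3a lost its call without the 27H10 ratio (-0.93) and Dnmt3b without either ratio (-0.78 and -1.35).

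The widest rises were in hormones of the placental prolactin family, which trophoblast giant cells and spongiotrophoblast secrete and whose genes lie on chromosome 13. Of 22 family members on the array, 11 passed the filter for signal above background. Of these 9 rose, 0 fell and 2 did not pass the test, with a median of 2.49. The shares called higher and lower were 81.8% and 0%, against 12% and 11% of all genes. With shared RNAs modelled, 7 rose, and the median was 5.43 in the authors' series values. A member could pass the filter through its signal in the Dnmt-labelled cells alone, so this count describes the members seen and does not stand for the family.

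For Prl2a1 the background-subtracted signal was 4110 and 1650 in Dnmt1-labelled cells of clone 27G5, against 18.1 and 53.2 in Dicer-null cells on the same arrays (before dye normalisation, so that a red signal reads brighter), and 4430 and 1960 in Dnmt1-labelled cells of clone 27H10, against 10.5 and 58.6 in Dicer-null cells. The Dnmt1-labelled signal was the higher one on every array and in both dyes, and the Dicer-null signal was well above background on 2 of 4 arrays. After normalisation the ratios were 4.82 and 5.54 (27G5), 4.38 and 5.23 (27H10), a mean rise of 4.99 ± 0.26 (adjusted p = 0.00105). The related Prl2c5 and Prl2c3 rose by 4.59 ± 0.37 and 4.46 ± 0.48. Csh1, placental lactogen I and now named Prl3d1, an early giant cell hormone, gave 2.43 and 2.56 (27G5), 2.37 and 2.60 (27H10). Its 2 clones were nearly equal, with a mean rise of 2.49 ± 0.01 (adjusted p = 0.00177).

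Prl7a1 and Prl7d1, 2 further members, had a Dicer-null signal that no array put well above background. Prl7a1 had ratios of 2.08, 2.17, 1.76 and 2.20 and was at least 3.74-fold higher (adjusted p = 0.00151). Prl7d1 had ratios of 3.09 and 4.03 (27G5), 0.99 and 1.91 (27H10) and was at least 5.11-fold higher (adjusted p = 0.0175). The rise of Prl7d1 was thus wider in clone 27G5, while Prl7a1 overlapped between clones. Values of some further measured members follow. Prl4a1 and Prl8a9 rose by less, 0.95 ± 0.09 and 1.04 ± 0.03. Prl2b1 at 0.34 and Prl3b1, placental lactogen II of later pregnancy, at -0.26 did not pass.

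The promoters of the 3 genes with the largest rises are shown because Dnmt1 acts at CpG sites. Sequences are from RefSeq (build GRCm38.p6), from 250 bases before to 50 after the start, 5′ to 3′, with each CpG in capitals.
Prl2a1 (chr13:27801405-27801704, plus strand): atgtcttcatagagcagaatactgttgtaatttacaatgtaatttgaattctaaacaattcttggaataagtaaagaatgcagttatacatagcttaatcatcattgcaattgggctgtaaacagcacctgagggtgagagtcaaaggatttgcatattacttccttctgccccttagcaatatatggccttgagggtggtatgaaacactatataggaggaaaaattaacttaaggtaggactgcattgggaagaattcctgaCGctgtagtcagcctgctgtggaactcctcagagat
Prl2c5 (chr13:13182466-13182765, plus strand): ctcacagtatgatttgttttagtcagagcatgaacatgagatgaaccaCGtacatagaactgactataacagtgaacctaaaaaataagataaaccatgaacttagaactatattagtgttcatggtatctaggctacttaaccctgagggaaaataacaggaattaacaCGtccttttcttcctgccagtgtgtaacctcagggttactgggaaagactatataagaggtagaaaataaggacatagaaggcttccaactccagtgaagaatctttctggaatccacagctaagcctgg
Prl2c3 (chr13:12800030-12800329, minus strand): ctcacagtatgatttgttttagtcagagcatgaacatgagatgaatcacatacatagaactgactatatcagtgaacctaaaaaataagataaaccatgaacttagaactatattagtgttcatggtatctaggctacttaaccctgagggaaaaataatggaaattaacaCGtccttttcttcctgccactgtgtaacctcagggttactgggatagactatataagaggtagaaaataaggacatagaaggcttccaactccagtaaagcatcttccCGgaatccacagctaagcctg
The 3 windows hold 1, 2 and 2 CpGs. All 11 measured prolactin genes had a promoter in the table, with 1 to 5 CpGs and a median of 2. The median was 7 over 27025 mouse genes in the same table, of which 42.8% have at most 5. It was 19 over the 12980 tested genes with a symbol and a promoter. Prl2c3 and Prl2c5 differ by 14 edits over 300 bases, and their array probes by 13 edits over 60 bases, so their signals may be shared between them and each of the 2 values is uncertain on its own.

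Beyond the prolactins, genes of several trophoblast layers rose. Of 42 placental genes outside the family on the array 28 passed the filter. Signal in the Dnmt-labelled cells alone could again carry a member past it. Of the 28 measured, 16 rose and 1 fell, 57.1% and 3.57% against 12% and 11% of all genes. The median was 0.64 (1.42 in the authors' series values). With shared RNAs modelled 6 rose. Serpinb9d, Serpinb9e and Serpinb9g, serine protease inhibitor genes that also lie on chromosome 13, rose by 2.40 ± 0.62, 2.33 ± 0.46 and 2.61 ± 0.47. Plac1, an X-linked placental gene, gave 2.50 and 2.21 (27G5), 1.97 and 1.86 (27H10), a mean rise of 2.13 ± 0.31 (adjusted p = 0.00206). All 4 arrays were near 2 or above, with clone 27G5 the higher. Plac8 was the 1 member that fell, by 1.58 ± 0.87 (adjusted p = 0.0312), a call lost without the 27H10 ratio.

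Among 24 regulators of trophoblast, most of them transcription factors, 8 rose and 1 fell, with a median of 0.41. The shares were 33.3% and 4.17%, against 12% and 11% of all genes. With shared RNAs modelled 4 rose. Tfap2c, which works in trophoblast and in germ cells, gave 1.68 and 1.61 (27G5), 1.84 and 1.88 (27H10), a mean rise of 1.75 ± 0.15 (adjusted p = 0.00274). Hand1, needed for giant cells, rose by 1.68 ± 0.33, Gata2 by 1.95 ± 0.74 and Id2 by 1.05 ± 0.16. Fgfr2, the receptor through which FGF4 holds trophoblast stem cells, gave 1.39, 1.41, 1.26 and 1.19, a mean rise of 1.31 ± 0.12 (adjusted p = 0.00204). Cdx2, which defines trophoblast stem cells, was at 0.90 and 0.69 (27G5), 0.17 and 0.35 (27H10) and did not pass (0.53 ± 0.38, adjusted p = 0.101). Its Dicer-null signal was not well above background on any array. Esx1, an X-linked homeobox gene of the labyrinth that is not on the list but among the 30 largest rises, gave 2.31, 2.53, 2.24 and 2.62 and rose by 2.42 ± 0.01 (adjusted p = 0.00213). As these are bulk RNAs, more cells of a type and more RNA per cell cannot be told apart.

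**Figure D2:**
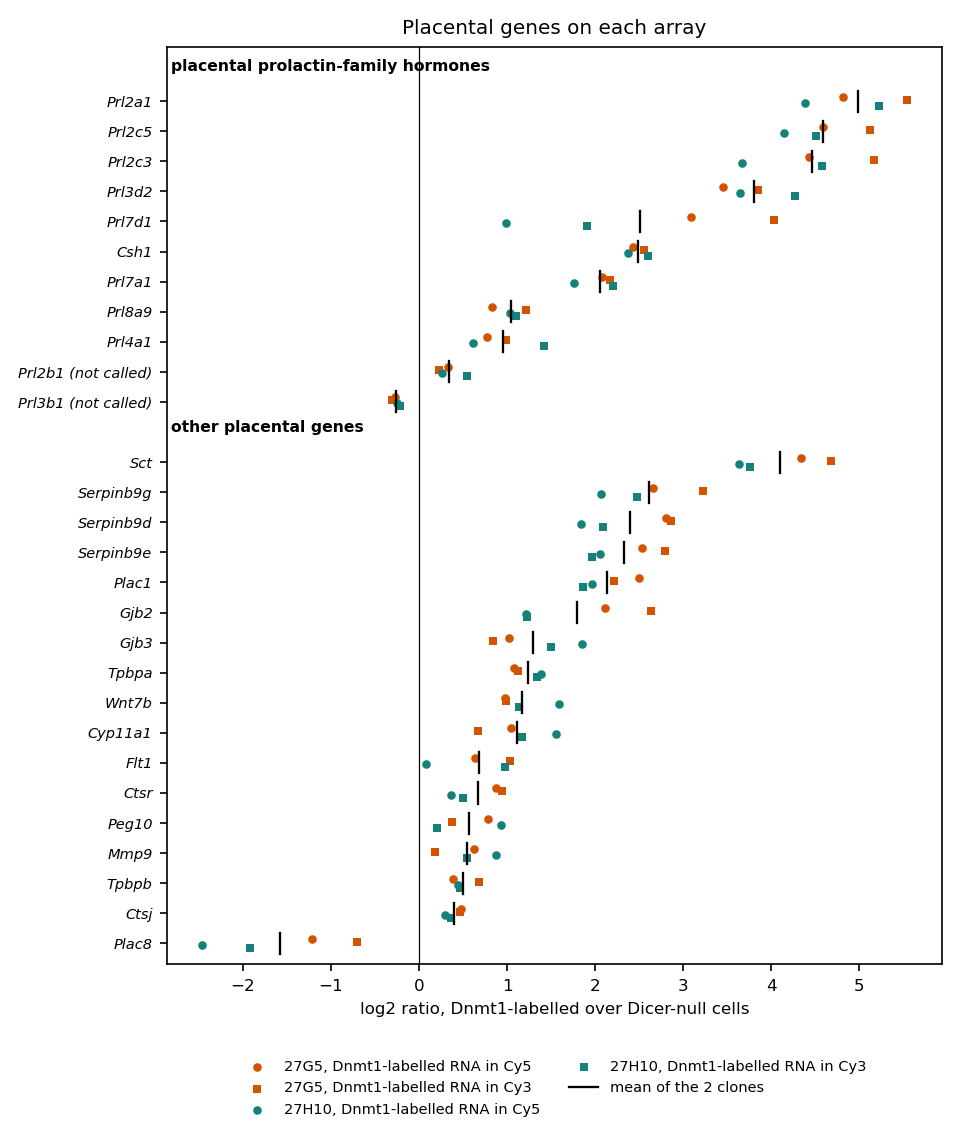
Each row is a placental gene, all 11 measured prolactins and the other placental genes that were called; the x axis is the log2 ratio of Dnmt1-labelled over Dicer-null cells on each of the 4 arrays (orange 27G5, teal 27H10; circles Dnmt1-labelled RNA in Cy5, squares in Cy3), and the bar is the mean of the 2 clones. All 4 points lie above 0 for the 9 called prolactins and 16 other genes, and below 0 for Plac8.

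Of 32 keratin and junction genes of simple epithelia 11 rose, 1 fell and 20 did not pass, with a median of 0.53. The shares called higher and lower were 34.4% and 3.12%, against 12% and 11% of all genes. With shared RNAs modelled 3 rose. Krt7, Krt8 and Krt18 form the intermediate filaments of simple epithelia. Krt7 gave 3.03 and 3.01 (27G5), 2.62 and 2.56 (27H10), a mean rise of 2.81 ± 0.30 (adjusted p = 0.00151). Clone 27G5 was the higher by a little in both dyes. Krt18 and Krt8 were called higher, at 2.13 and 1.23, but their Dnmt1-labelled signals were saturated on 3 and 2 of the 4 arrays, so that these sizes are not exact. The desmosomal cadherin Dsc2 rose by 1.27 ± 0.17. Of 34 contractile cytoskeleton genes 12 rose (35.3% against 12% of all genes) and 0 fell, with a median of 0.31. With shared RNAs modelled 2 rose. Among the 12 were the tropomyosins Tpm2, at 1.75 ± 0.05, and Tpm1, at 0.72 ± 0.09.

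The transglutaminase Tgm2 rose by 2.84 ± 0.70 and the elastic-fibre protein Fbln5 by 2.65 ± 0.42. These genes are also made by fibroblasts, so the fibroblast and matrix list is given beside them. Of 39 members 8 rose and 5 fell, 20.5% and 12.8% against 12% and 11% of all genes, with a median of 0.05. With shared RNAs modelled 2 rose and 1 fell. Fbln5 is itself on that list, and of its other members Pdgfrb, a PDGF receptor of stromal cells, rose by 0.76 ± 0.19 and Timp2, an inhibitor of matrix metalloproteinases, by 0.55 ± 0.03. Thy1, a fibroblast surface protein, was at -0.26 and did not pass. Col1a1, the main fibrillar collagen, was called lower at -0.53 ± 0.29, a call lost without the 27G5 ratio, with probes averaged and with shared RNAs modelled (-0.21 to -0.93 over the alternatives); its other probes gave -0.09 and -0.03. Dcn, the proteoglycan decorin, was called lower at -2.45, and at -4.40 in the scanner software ratio. Its Dnmt1-labelled signal was well above background on 1 of 4 arrays, with signals of 53.6, 17.4, 29.2 and 14.1 in Dnmt1-labelled cells, against 305, 787, 215 and 611 in Dicer-null cells. Whether cells of this kind have a part in the rises was not tested. Csf1r, the receptor of macrophages that trophoblast also carries, rose by 2.37 ± 0.38 at its brightest probe and by 1.34 and 0.09 at its other detected probes. 1600025M17Rik, at 3.43 ± 0.47, and 1700013H16Rik, at 4.27 ± 1.72, for which no role is given here, also stood among the 30 largest rises.

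The Rhox cluster encodes homeobox proteins of the placenta and the germ line. Of 8 Rhox genes on the array 7 were measured. Of these 4 rose (57.1% against 12% of all genes) and 0 fell, and 3 rose with shared RNAs modelled. Rhox9 had signals of 65200 and 42000 in Dnmt1-labelled cells of clone 27G5, against 4370 and 17500 in Dicer-null cells, and of 65100 and 34600 in Dnmt1-labelled cells of clone 27H10, against 2570 and 11700 in Dicer-null cells. The Dnmt1-labelled signal was saturated on 2 of the 4 arrays. Its ratios were 2.68, 3.00, 3.02 and 2.97, a mean rise of 2.92 ± 0.11 (adjusted p = 0.00219). The ratios with Dnmt1-labelled RNA in Cy5 come from the saturated signals, so neither the size nor the likeness of dyes and clones is exact. 1700123J19Rik, which RefSeq lists as Rhox13, rose by 2.48 ± 0.35. Rhox5 was called higher at 1.21, but was saturated in Dnmt1-labelled RNA on 3 arrays and in Dicer-null RNA on 1, so its size is not exact.

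Promoter methylation is known to act on Rhox5. The gene was not silent in the control cells, with Dicer-null signals of 14900 and 64800 (27G5), 13500 and 50800 (27H10). Its RefSeq promoter (build GRCm38.p6) is shown with its 5 CpGs in capitals.
Rhox5 (chrX:37754358-37754657, plus strand): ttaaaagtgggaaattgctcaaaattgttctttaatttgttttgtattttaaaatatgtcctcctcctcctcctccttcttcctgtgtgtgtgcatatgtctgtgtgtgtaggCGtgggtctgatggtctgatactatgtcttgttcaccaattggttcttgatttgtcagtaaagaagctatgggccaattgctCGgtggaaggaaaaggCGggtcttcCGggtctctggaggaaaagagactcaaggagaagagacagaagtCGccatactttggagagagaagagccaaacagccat
The arrays hold no methylation measurement, so the state of these CpGs in the 2 kinds of cells was not measured.

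Germline genes were the next group. Of 35 measured 14 rose and 1 fell, 40% and 2.86% against 12% and 11% of all genes. The median was 0.32 (0.59 in the authors' series values), and 2 rose with shared RNAs modelled. Stra8, the retinoic acid target that opens meiosis, gave 1.25 and 1.63 (27G5), 1.40 and 1.98 (27H10), a mean rise of 1.57 ± 0.18 (adjusted p = 0.00325). Taf7l, an X-linked testis subunit of the basal transcription factor TFIID, gave 2.27, 2.16, 1.57 and 1.66, a mean rise of 1.92 ± 0.42 (adjusted p = 0.00325). Both were above 1 on each array. Sohlh2, a factor of early germ cells, rose by 0.77 ± 0.09, Tex11 by 1.68 ± 0.68 and Xlr5c by 1.85 ± 0.26. Tdrd12, of the piRNA pathway, fell by 0.82 ± 0.17 (adjusted p = 0.0169), a call lost without the 27H10 ratio.

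Imprinted genes are read from 1 parental copy under the control of DNA methylation. Of 46 measured 10 rose and 5 fell, 21.7% and 10.9% against 12% and 11% of all genes, with a median of 0.12. The share of falls thus lay near that of all genes. With shared RNAs modelled 4 rose. H19, the maternally expressed noncoding RNA, had signals of 20200 and 7580 in Dnmt1-labelled cells of clone 27G5, against 2120 and 7110 in Dicer-null cells, and of 63100 and 12600 in Dnmt1-labelled cells of clone 27H10, against 3570 and 11000 in Dicer-null cells. Its ratios were 2.01, 1.88, 2.54 and 1.59, a mean rise of 2.00 ± 0.08 (adjusted p = 0.00177), and its second probe gave 3.06. Igf2, the paternally expressed growth factor beside H19, gave 1.48 and 1.85 (27G5), 1.05 and 1.5 (27H10) and rose by 1.47 ± 0.28 (adjusted p = 0.00768). These neighbours, which are read from opposite parental copies, both rose. Cdkn1c, a maternally expressed inhibitor of cyclin-dependent kinases, rose by 2.11 ± 0.54 and Sgce, a paternally expressed sarcoglycan, by 2.04 ± 0.34. Slc22a18 fell by 0.65 ± 0.14 and Nnat fell by 0.42 ± 0.15, a call lost with clone as a replicate block and without either clone (-0.55 to -0.31 over the alternatives).

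Genes of MHC class I, which displays peptides at the cell surface, rose as well: 12 of 22 measured rose and 1 fell. The shares were 54.5% and 4.55%, against 12% and 11% of all genes. The median was 0.56, and 3 rose with shared RNAs modelled. H2-T10 and H2-T22, nonclassical class I genes, rose by 1.49 ± 0.06 and 1.54 ± 0.29. The light chain B2m gave 0.57 and 0.63 (27G5), 1.18 and 1.01 (27H10), a mean rise of 0.85 ± 0.35 (adjusted p = 0.0114), with no overlap between the clones. Class I genes are near copies of each other; the closest pair of their probes differed by 11 edits over 60 bases, so their separate values are uncertain. Psmb10, a subunit of the immunoproteasome, fell by 0.63 ± 0.01, a call lost without the 27H10 ratio. Hox genes, which pattern the body axis, rose in 10 of 26 (38.5% against 12% of all genes) and fell in 0. The median was 0.27 (0.97 in the authors' series values). With shared RNAs modelled 2 rose. Of 38 Hox genes on the array 26 passed the filter, which signal in the Dnmt-labelled cells alone could meet. Hoxa2, Hoxa4 and Hoxa10, all called higher, had a Dicer-null signal that no array put well above background. The count thus describes the members seen.

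**Figure D3:**
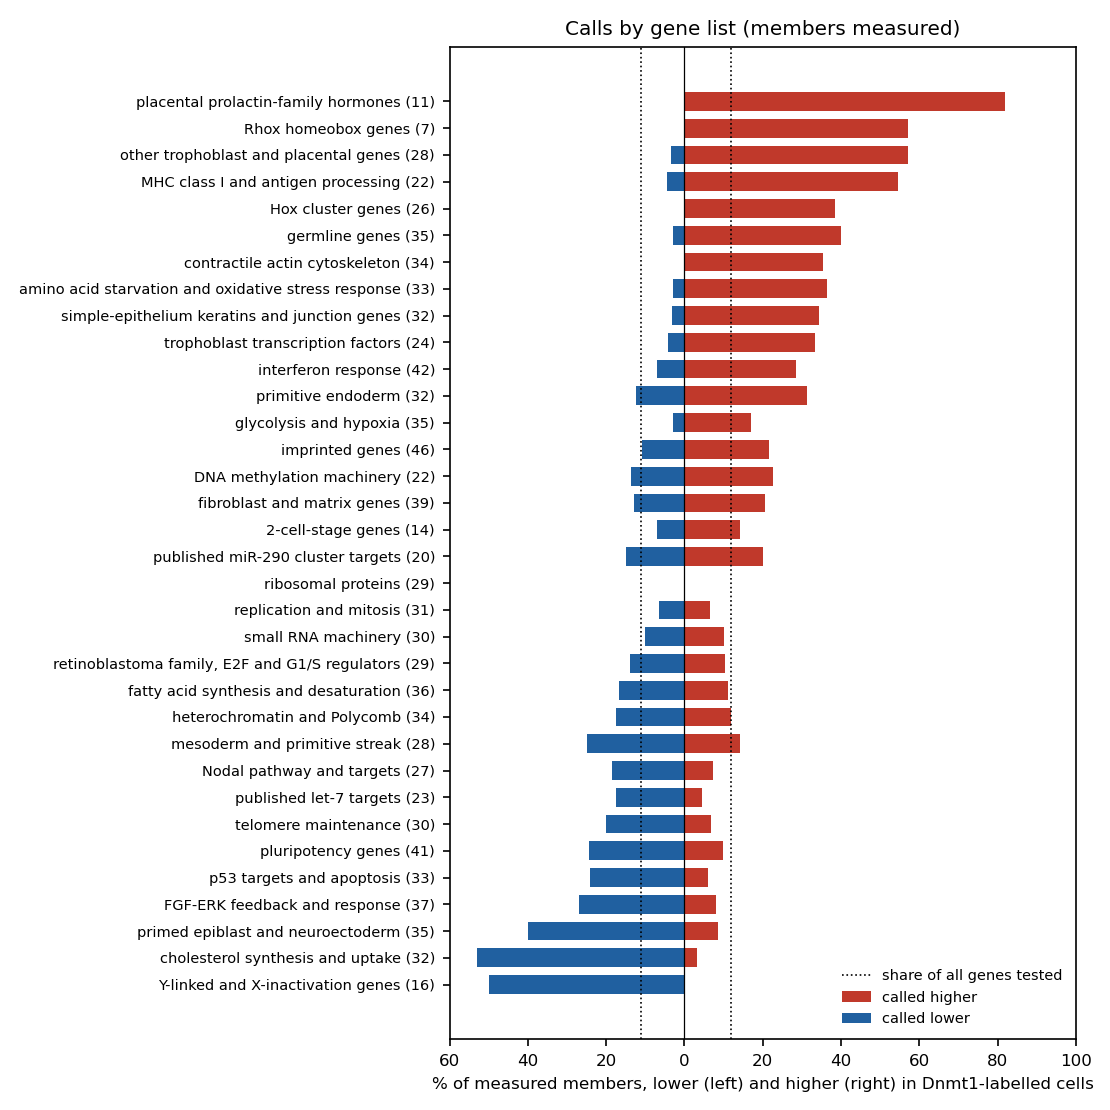
Each row is a gene list with its number of measured members in brackets; bars to the right give the % of members called higher in Dnmt1-labelled cells and bars to the left the % called lower, and the dotted lines are the shares of all genes tested (12% and 11%). Placental prolactins stand at 81.8% higher and cholesterol synthesis at 53.1% lower. A member could pass the filter through the Dnmt-labelled cells alone, so the shares describe the members seen.

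On the other side, genes of cholesterol synthesis fell together. Of 32 measured 17 fell and 1 rose, a share of 53.1% against 11% of all genes, with a median of -0.48; 3 fell with shared RNAs modelled. Idi1, the isomerase that makes the building block of isoprenoids, had ratios of -1.45 and -1.59 (27G5), -1.42 and -1.35 (27H10), a mean of -1.45 ± 0.10 (adjusted p = 0.00181). Hmgcs1, which forms HMG-CoA from acetyl-CoA units, gave -1.10, -1.13, -1.06 and -1.04, a mean of -1.08 ± 0.05 (adjusted p = 0.00218). Both genes were at below -1 log2 unit on all 4 arrays. Fdps, farnesyl diphosphate synthase, fell by 0.93 ± 0.10 and Nsdhl, of the later steps, fell by 0.74 ± 0.23. The cholesterol exporters Abca1 and Abcg1 are known targets of the liver X receptors; Abca1 fell by 1.43 ± 0.14 and Abcg1 fell by 1.41 ± 0.16. The list thus holds falls in both synthesis and export. Lpl, the lipoprotein lipase, was the 1 member that rose, by 1.13 ± 0.19.

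Genes of sterol synthesis are known targets of the SREBP factors, which bind sterol regulatory elements beside CCAAT boxes. The Hmgcs1 and Idi1 promoters (RefSeq, build GRCm38.p6) are shown, with each CCAAT or ATTGG and each sterol element in capitals.
Hmgcs1 (chr13:119690101-119690400, plus strand): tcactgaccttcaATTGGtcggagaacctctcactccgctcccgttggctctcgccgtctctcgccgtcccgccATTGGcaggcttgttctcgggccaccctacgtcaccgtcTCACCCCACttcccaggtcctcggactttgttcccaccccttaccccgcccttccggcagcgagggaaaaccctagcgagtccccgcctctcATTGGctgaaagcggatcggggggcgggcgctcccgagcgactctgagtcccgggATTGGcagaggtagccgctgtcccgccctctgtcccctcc
Idi1 (chr13:8885356-8885655, plus strand): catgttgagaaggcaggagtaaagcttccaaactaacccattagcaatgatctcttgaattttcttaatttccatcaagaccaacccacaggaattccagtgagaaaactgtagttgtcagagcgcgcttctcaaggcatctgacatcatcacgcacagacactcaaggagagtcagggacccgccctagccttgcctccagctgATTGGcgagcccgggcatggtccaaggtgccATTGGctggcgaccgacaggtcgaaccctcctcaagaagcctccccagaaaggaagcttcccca
The letters TCACNCCAC, searched on both strands as the sterol element, occur 1 time in the Hmgcs1 window, 137 bases before the start, and in 1.24% of all 32851 promoters of the table. CCAAT, also searched on both strands, occurs 4 times in the Hmgcs1 and 2 times in the Idi1 window and in 37.4% of all promoters. Of the 32 measured genes of the list 20 had a promoter in the table, which is too few for a comparison over the list. The sterol element was in 1 of these 20, Hmgcs1, and not in Idi1. CCAAT was in 9 of the 10 called lower and in 8 of the 10 not called. A match is a description of the letters only.

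Of 36 fatty acid genes 4 rose and 6 fell, shares of 11.1% and 16.7% that lie near those of all genes; 0 rose and 1 fell with shared RNAs modelled. The desaturase Scd1 had signals of 418 and 141 in Dnmt1-labelled cells of clone 27G5, against 964 and 3320 in Dicer-null cells, and of 570 and 156 in Dnmt1-labelled cells of clone 27H10, against 754 and 2100 in Dicer-null cells. Its ratios were -2.22 and -2.44 (27G5), -2.11 and -2.16 (27H10), with clone 27G5 the lower. Pparg, the nuclear receptor of adipocytes and trophoblast, rose by 2.17 and 2.27 (27G5), 0.56 and 0.73 (27H10) (1.43 ± 1.11, adjusted p = 0.0398), and lost its call without the 27G5 ratio. The fatty acid synthase gene Fasn was called lower at -0.42, but its ratio was -1.17 and -1.19 with Dnmt1-labelled RNA in Cy5, against 0.40 and 0.28 with it in Cy3. This probe was saturated in Dnmt1-labelled RNA on 2 arrays and in Dicer-null RNA on 3, so no direction is read from it. A second, dimmer Fasn probe gave -0.82 and -1.06 (27G5), -0.33 and -0.68 (27H10), all below 0 (mean -0.72), and was not tested.

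**Figure D4:**
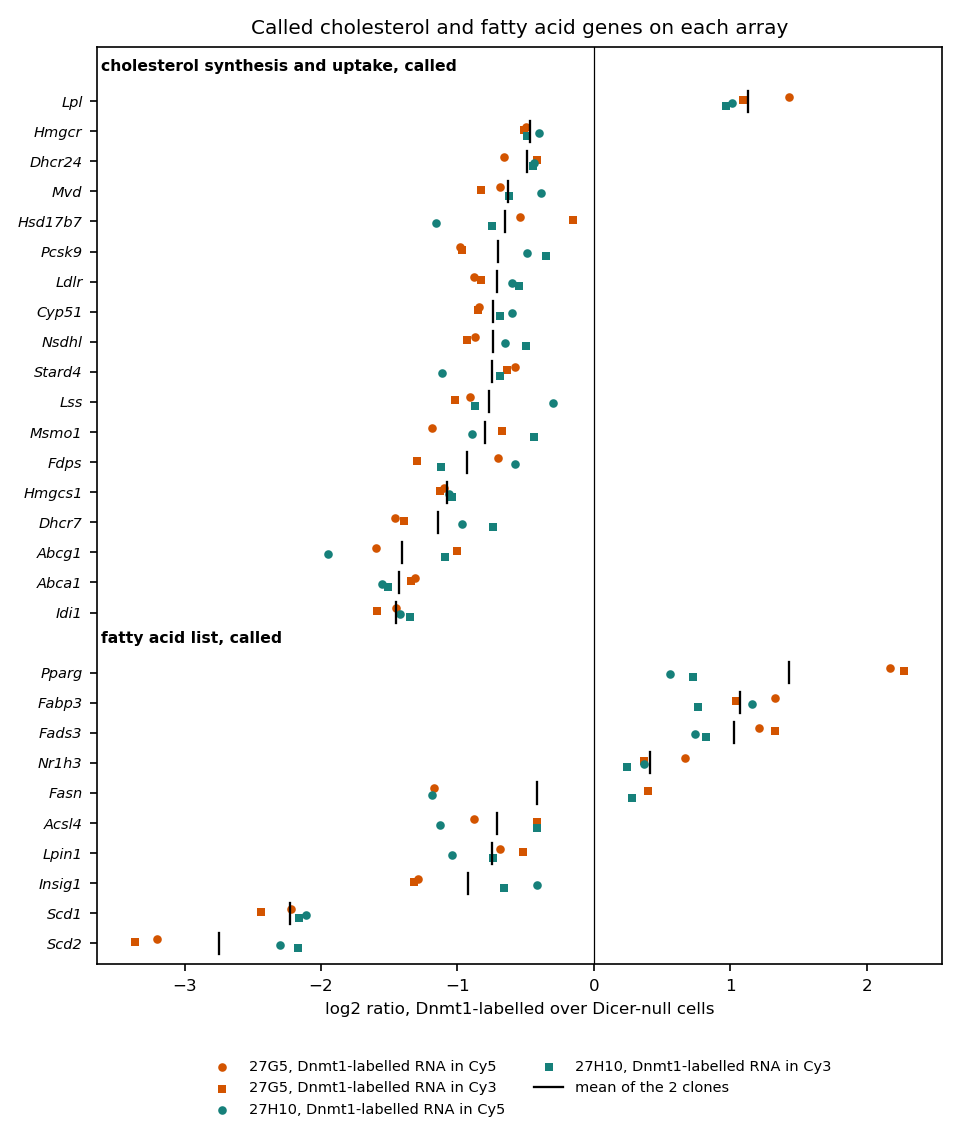
Each row is a called gene of the cholesterol list or of the fatty acid list; the x axis is the log2 ratio of Dnmt1-labelled over Dicer-null cells on each of the 4 arrays (orange 27G5, teal 27H10; circles Dnmt1-labelled RNA in Cy5, squares in Cy3), and the bar is the mean of the 2 clones. All cholesterol genes shown but Lpl lie below 0 on each array, and Fasn has 2 points on either side.

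Of 41 measured pluripotency genes 4 rose and 10 fell, 9.76% and 24.4% against 12% and 11% of all genes, with a median of -0.02; 0 rose and 1 fell with shared RNAs modelled. Pou5f1, which encodes Oct4, gave 0.42, -0.55, 0.08 and 0.49 and Sox2 a mean of 0.06 ± 0.14; neither passed, and Pou5f1 was saturated in Dnmt1-labelled RNA on 1 and in Dicer-null RNA on 2 arrays. Nanog was called higher at 0.68 ± 0.36 with arrays of 0.72, 0.12, 1.51 and 0.37, a call lost without the 27H10 ratio and with only the arrays that had Dnmt1-labelled RNA in Cy3. Zfp296, an ES cell zinc finger, gave -0.75, -1.02, -0.90 and -1.18, a mean of -0.96 ± 0.11 (adjusted p = 0.00289). Lin28a, the RNA-binding inhibitor of let-7, fell by 0.96 ± 0.15, Rif1 fell by 0.98 ± 0.05 and Nr5a2 fell by 0.99 ± 0.44, a call lost without the 27H10 ratio.

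Genes of the primed epiblast and neuroectoderm fell in 14 of 35 and rose in 3. The shares were 40% and 8.57%, against 11% and 12% of all genes. The median was -0.12, and 3 fell with shared RNAs modelled. The neuronal microtubule protein Map2 gave -1.36 and -1.14 (27G5), -1.63 and -1.46 (27H10), a mean of -1.40 ± 0.21 (adjusted p = 0.00325). Pou3f1, a factor of the primed state, fell by 1.38 ± 0.60 and the nodal morphogen gene Nodal fell by 0.94 ± 0.16. Pax6, of the eye and neural tube, and Zfp521 rose, by 1.23 ± 0.18 and 1.25 ± 0.38. In the FGF-ERK list 10 of 37 fell and 3 rose, 27% and 8.11% against 11% and 12% of all genes. With shared RNAs modelled 2 fell and 1 rose, and Egr2 and Spry1 lost their calls. Egr2, an immediate early gene, fell by 1.49 ± 0.15, the feedback inhibitor Spry1 fell by 0.69 ± 0.05 and Fgf15 fell by 1.83 ± 0.31. Pou3f1 and Fgf15 lost their calls without the 27H10 ratio.

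Of 16 measured Y-linked and X-inactivation genes 8 fell (50% against 11% of all genes) and 0 rose. The median was -0.50, and 1 fell with shared RNAs modelled. Kdm5d, a Y-linked histone demethylase, gave -1.62 and -1.68 (27G5), -1.13 and -1.16 (27H10), a mean of -1.40 ± 0.36 (adjusted p = 0.00658). Ddx3y, a Y-linked RNA helicase, fell by 1.74 ± 0.61 and Eif2s3y, a Y-linked translation factor, fell by 1.19 ± 0.25, a call lost without the 27G5 ratio. All arrays lay below 0 for the 3 genes, with clone 27G5 the lower. Before dye normalisation Kdm5d had signals of 111, 34.9, 203 and 58.9 in Dnmt1-labelled cells, against 221, 677, 160 and 472 in Dicer-null cells. Xist, which silences an X chromosome in females, was at 0.02 and did not pass.

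Genes of the amino acid starvation and oxidative stress response rose in 12 of 33 and fell in 1. The shares were 36.4% and 3.03%, against 12% and 11% of all genes. The median was 0.30 (27G5 0.15, 27H10 0.56), and 3 rose with shared RNAs modelled. Ddit3, the factor CHOP, gave 0.89, 1.04, 0.92 and 1.09, a mean rise of 0.98 ± 0.02 (adjusted p = 0.00405). Nqo1, an NRF2 target, rose by 1.08 ± 0.24. Mt1, a metallothionein, rose by 0.85 ± 0.10, with its Dnmt1-labelled signal saturated on 1 array. Among 33 p53 target and apoptosis genes 8 fell and 2 rose, 24.2% and 6.06% against 11% and 12% of all genes. With shared RNAs modelled 0 were called in either direction. Each of the 29 ribosomal protein genes was saturated on at least 1 array: 0 were called over both dyes, 27 were called lower on the arrays with Dnmt1-labelled RNA in Cy5 (median -1.04) and 27 higher on those with it in Cy3 (median 1.13), so no level is read from them.

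The other lists had these counts of measured members, to be read against the 12% and 11% of all genes called higher and lower. Interferon response genes rose in 12 of 42 and fell in 3, and primitive endoderm genes rose in 10 of 32 and fell in 4; with shared RNAs modelled 5 and 3 rose. Mesoderm and primitive streak genes rose in 4 of 28 and fell in 7 (0 and 3 with shared RNAs modelled), genes of the Nodal pathway rose in 2 of 27 and fell in 5 (0 and 1), and telomere genes rose in 2 of 30 and fell in 6 (0 and 0). Heterochromatin and Polycomb genes rose in 4 of 34 and fell in 6 (1 and 0 with shared RNAs modelled), and genes of the retinoblastoma and E2F families rose in 3 of 29 and fell in 4 (0 and 0). Among genes tied to small RNAs, the machinery rose in 3 of 30 and fell in 3 (1 and 0 with shared RNAs modelled), published miR-290 targets rose in 4 of 20 and fell in 3 (1 and 1), and published let-7 targets rose in 1 of 23 and fell in 4 (0 and 1). Glycolysis and hypoxia genes rose in 6 of 35 and fell in 1, replication and mitosis genes rose in 2 of 31 and fell in 2, and 2-cell-stage genes rose in 2 of 14 and fell in 1; none of these 3 lists had a call with shared RNAs modelled. In the primitive endoderm list Serpinh1, a collagen chaperone, rose by 1.61 ± 0.19 and Col4a2, a basement membrane collagen, by 1.27 ± 0.08. The endoderm factor Gata6, at 0.34 ± 0.01, did not pass. In the mesoderm list Kdr, the VEGF receptor of blood and vessel precursors, fell by 1.31 ± 0.03.

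The second question was whether these changes differed from those in Dicer-null cells labelled as overexpressing Dnmt3a and Dnmt3b. No gene was called between the 2 kinds of cells (0%, limma), and 0 were called under any alternative that gave a value. An unadjusted p under 0.05 was reached by 191 of 20048 genes, below the share of 0.05 expected with no difference. By that count the test was conservative, and the 0 calls do not show that the cells were alike. The main fit took the 2 ratios of a clone as independent, although they share a Dicer-null RNA. The difference had a median size of 0.0789 log2 units over genes. The 95% interval of a difference, taken with 3 degrees of freedom, reached 0.466 to either side in the median. This interval is for a single gene without adjustment, so it is not the limit of what the test could call. The widest difference, 1.15 in size, was not called either. Neither of the enzymes in that label rose: Dnmt3a was at -0.38 (27G5) and -1.68 (27H10) in Dnmt3a,3b-labelled over Dicer-null cells (mean -1.03, adjusted p = 0.0825), and Dnmt3b was called lower there, at -1.46 (27G5) and -0.62 (27H10) (mean -1.04, adjusted p = 0.0341). The cells are therefore called Dnmt3a,3b-labelled. Both comparisons share their Dicer-null RNAs, and their values are therefore given side by side only. Prl2a1 was at 4.99 in Dnmt1-labelled and 4.77 in Dnmt3a,3b-labelled cells, Prl2c5 at 4.59 and 4.69, Idi1 at -1.45 and -1.10, and Scd1 at -2.23 and -1.68. In the mean, 3 genes were at least 2-fold apart, and they were singled out after their values were seen. Ccl7, a chemokine, was at 0.74 and 0.91 in Dnmt1-labelled cells and 2.56 and 1.39 in Dnmt3a,3b-labelled cells (27G5 and 27H10). Egr1, an immediate early gene, was at -1.39 and -0.76 in Dnmt1-labelled cells and 0.09 and -0.20 in Dnmt3a,3b-labelled cells. Ccn4, a WNT target, was at 0.83 and 0.50 in Dnmt1-labelled cells and 1.86 and 1.51 in Dnmt3a,3b-labelled cells. None of the 3 passed.

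The last comparison set Dnmt1-labelled cells against wild-type ES cells through the Dicer-null RNAs, by adding both log2 ratios. The sum was called higher for 3082 genes (15.4%) and lower for 2850 (14.2%), 5932 in all, and 2739 with shared RNAs modelled. Because the Dicer-null RNA enters both ratios with opposite signs, they lean against each other by construction and are given side by side. Sgce was 2.04 over Dicer-null cells, Dicer-null cells were -2.05 over wild type, and the sum was -0.01 (adjusted p = 0.971). Krt7 stood likewise at 2.81, -2.35 and 0.46 (adjusted p = 0.0969). For these the Dnmt1-labelled cells did not differ from wild type past the threshold. Prl2a1 was at 4.99, -0.23 and 4.76 and Prl2c5 at 4.59, -0.18 and 4.41, so both sums were above 0 (adjusted p = 0.000857 and 0.000827). Idi1 was at -1.45, -0.12 and -1.57 and Scd1 at -2.23, -0.30 and -2.53, both below 0 (adjusted p = 0.00153 and 0.00128). Lin28a, at -0.96, -3.24 and -4.20, and Plac8, at -1.58, -3.34 and -4.92, fell in both ratios. Igf2 rose by 1.47 and remained lower than in wild type, at -1.22.

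**Figure D5:**
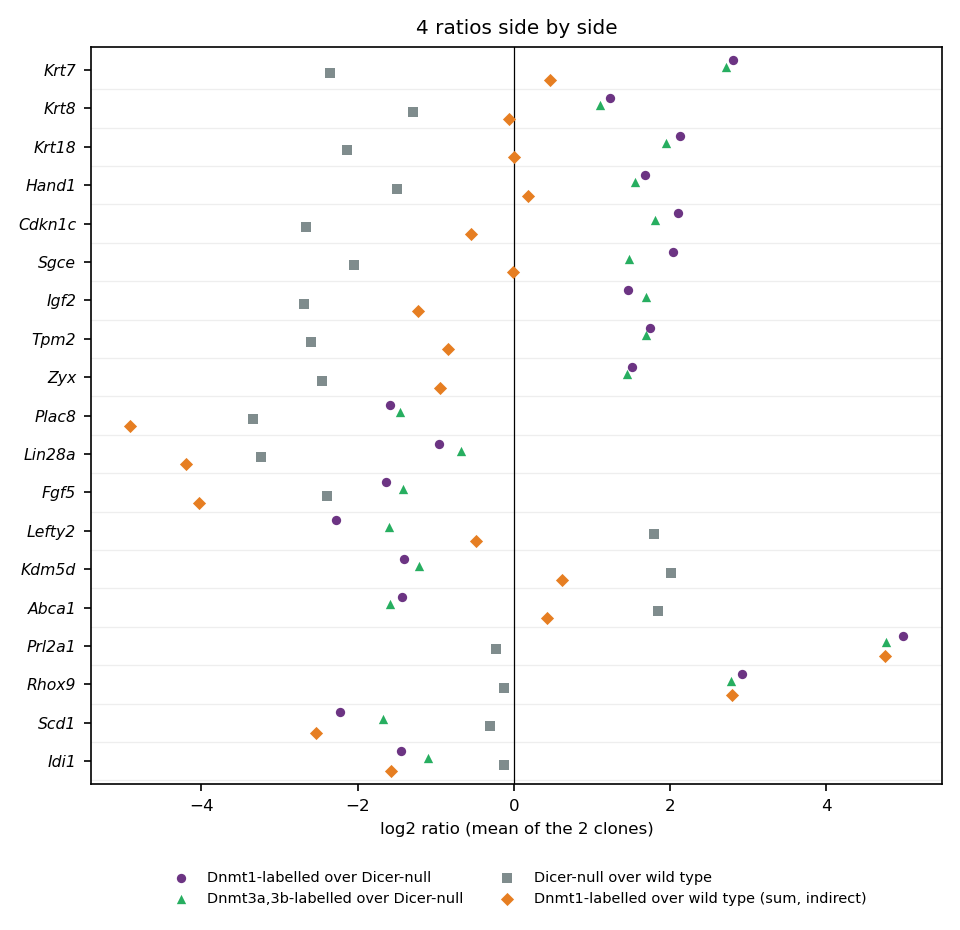
Each row is a gene; the x axis gives 4 mean log2 ratios over the 2 clones: Dnmt1-labelled over Dicer-null (purple circles), Dnmt3a,3b-labelled over Dicer-null (green triangles), Dicer-null over wild type (grey squares) and the sum that sets Dnmt1-labelled cells over wild type (orange diamonds). The circles and triangles lie on the same side of 0 in each row; the diamond of Sgce lies near 0 and that of Prl2a1 beside its circle. Values of Krt8, Krt18 and Rhox9 rest in part on saturated spots.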

How the data were processed

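The 12 arrays were 2-colour Agilent mouse 44K arrays, each pairing hybridised with dyes exchanged, which gave 6 ratios of 7 named RNAs. The deposited scanner files hold spot intensity and local background in green and red and a log10 ratio of background-subtracted, dye-normalised signals, from Agilent Feature Extraction 9.5.1.1 (9.1.3.1 for the wild-type arrays), per the file headers. The authors' series values are on a log2 scale, already turned to the first-named cells over their reference; they follow the scanner's ratio, turned likewise, with a slope near 1 and medians from -0.14 to 0.17, and how they were centred is not given in the sources used here.

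Mean signals were corrected by normexp (offset 50) and normalised by loess within each array in limma 3.58.1 (R 4.3.3), with control spots at weight 0 and outlier spots left out. Spots of a probe and then the dye-swapped pair were averaged. A probe was kept if present on all 12 arrays and well above background on both arrays of either side of a pair; a gene was its brightest such probe, 20048 genes. All 6 ratios entered 1 limma fit (3 residual degrees of freedom, empirical Bayes, Benjamini-Hochberg over all genes). Fold bounds raise a channel that is not well above background to its lowest signal above it. Genes were named through RefSeq accessions for 22951 of 41174 probes; other probes kept the design's name. Coordinates of probes are on mm7.

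Named genes were the 30 highest and 30 lowest among called genes whose 4 arrays shared a sign, 5 fixed genes, and up to 6 called members in each direction of 34 gene lists with up to 3 defining members; other genes are said to be chosen after their values were seen. Members and lists were chosen with earlier results of these data known. The fit was tested on simulated data. A shared clone name marks the same cell line across comparisons, which pairs the ratios; deviations of same-clone ratios correlated at 0.36 between both Dnmt comparisons and at -0.06 and -0.13 with the wild-type one. Results of 2 named genes are not reported here.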

Additional observations from a re-analysis of the deposited data

Results flagged for a closer look

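Xist was at 0.19 on the log2 scale in clone 27G5 and at -0.16 in clone 27H10, with both arrays of a clone on the same side of 0. It stands here because the clones moved in opposite directions; the difference between the clones was not tested, and neither the mean nor either clone alone passed the threshold. Across all genes, 2144 had opposite signs by clone on all 4 arrays, 0 of them called.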

How the results depend on the processing

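Of 15 alternatives, those on background, normalisation, the authors' and the scanner's values, filters, probe choice and dye left both counts of called genes within 1.5 times. With only the Dnmt1 ratios (1 residual degree of freedom) 166 genes rose and 70 fell, and with shared RNAs modelled 291 rose and 189 fell. Leaving out a clone gave 1310 to 2439 rises and 1030 to 2259 falls, the lower numbers without the 27H10 ratio; a lone clone is assumed to vary like the others. With clone as a replicate block 2369 rose and 2050 fell, and 16 of 274 named genes lost their call. In the Dnmt arrays this block is also the slide, but the wild-type arrays of both clones shared 1 slide. Among the lists the block gave 0 of 2 rises for replication genes, 2 of 4 falls for E2F genes, 3 of 6 for heterochromatin and 3 of 5 for imprinted genes. It moved other counts by over 1.5 times only where they were 2 or less. The sum over wild type gave 2739 with shared RNAs modelled. The Dnmt1 signal ran from 0.10 to 0.43 without a clone, and was called in the second case. Among named genes, reversed values were 0.00 for E2f8, 0.19 for Terf2 and 0.00 for Xist with a gene's probes averaged; 0.34 for Fasn and -0.03 for Pou5f1 with Dnmt1-labelled RNA only in Cy3; 0.04 for Peg3, 0.04 for Rbl2 and 0.00 for Xist with it only in Cy5; -0.03 for Pou5f1 and -0.03 for Sox2 with median centring; -0.07 for Pou5f1 and -0.04 for Sox2 without the 27H10 ratio, against 0.29 and 0.16 without the 27G5 ratio; and -0.16 for Xist without the 27G5 ratio. The cause of these was not tested. The comparison with Dnmt3a,3b-labelled cells called 0 genes under each alternative that could be run, and it and the sum have no value with only the Dnmt1 ratios. Of 111 named genes with more than 1 detected probe, 13 had a probe of opposite sign. Signal over background and 2 clones limit the precision.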
